A study of Homo sapiens with 2 samples.

Results

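TFAP2A, TFAP2B, TFAP2C, FOXD3 and ETS1 are neural crest specifier genes outside the SOX and PAX families. FOXD3-AS1 is the antisense transcript of FOXD3. All 6 genes were chosen by name, without use of their measured values, and were among the 33694 genes listed for both libraries. Their levels were taken across the deposited cell types and subclusters of 2 single-cell libraries made from cultures of the human embryonic stem cell line H9 during differentiation to enteric neural crest cells (ENCCs), the progenitors of the neurons and glia of the gut. The day 10 library came from adherent cultures on Geltrex, whose first induction medium contained BMP4, SB431542 and CHIR 99021 and whose later media kept SB431542 and CHIR 99021, with retinoic acid in the last. The day 15 library came from free-floating enteric crestospheres, made by detaching the monolayer on day 12 and moving the cells to low-attachment plates in NC-C medium with FGF2 and CHIR 99021. Each library (n = 1 per stage) held 2 biological repeats, and the files do not tell their cells apart. The effects of stage, of adherent or floating culture, of medium and of depth therefore cannot be told apart from that of the library, no difference has a replicate check, and all intervals below are 95% intervals for counting error only.

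TFAP2 proteins bind DNA as dimers and act early at the neural plate border, where they open the way for neural crest specifiers, and TFAP2A is also a regulator of non-neural ectoderm and epidermis. FOXD3 is a forkhead repressor that marks premigratory and early migrating neural crest and maintains its progenitor state. ETS1 is a transcription factor that acts downstream of receptor kinase signalling and takes part in delamination of the cranial and cardiac crest.

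In GENCODE release 29 on GRCh38, TFAP2A lies on chromosome 6 from 10393186 to 10419659 on the minus strand, and TFAP2B lies on the same chromosome from 50818723 to 50847613 on the plus strand. TFAP2C lies on chromosome 20 from 56629302 to 56639283 on the plus strand, and ETS1 on chromosome 11 from 128458761 to 128587558 on the minus strand. FOXD3, a single-exon gene, lies on chromosome 1 from 63323041 to 63325126 on the plus strand. FOXD3-AS1 lies on the minus strand from 63320884 to 63324441, so that the 2 genes overlap over 1401 bases, of which 179 are exonic in both. Whether the counting used the strand is not given in the sources used here, and reads in the shared part cannot be assigned to either gene without it. TFAP2A has an antisense neighbour as well, TFAP2A-AS1, which overlaps it over 7107 bases and was at 0.785 counts per 1000000 counts (CPM) in day 10 ENCCs.

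The stretch in front of FOXD3 is shown because FOXD3 and FOXD3-AS1 had the most similar levels across cell classes of any pair among the 6 genes (below), and because it runs from a start of FOXD3-AS1 up to that of FOXD3. In RefSeq (GRCh38.p14) FOXD3 starts at 63322567 and 1 group of FOXD3-AS1 transcripts starts at 63322458 in the opposite direction. The 250 bases before the FOXD3 start, chr1:63322317-63322566 on the plus strand, read as follows, with the 108 bases between the 2 starts in capitals.
FOXD3 promoter: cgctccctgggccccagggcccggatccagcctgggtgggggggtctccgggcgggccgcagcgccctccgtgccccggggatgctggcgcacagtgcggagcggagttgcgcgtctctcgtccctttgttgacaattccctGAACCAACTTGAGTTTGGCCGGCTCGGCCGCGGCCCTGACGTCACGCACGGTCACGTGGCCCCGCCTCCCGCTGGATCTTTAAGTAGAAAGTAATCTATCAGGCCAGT
G and C made up 67.6% of this stretch. RefSeq promoter windows (250 bases before to 50 after the start) were at hand for 4 of the 6 genes, with none for TFAP2C or ETS1. The windows of TFAP2A, TFAP2B, FOXD3 and FOXD3-AS1 were searched on both strands for the TFAP2 palindrome GCCNNNGGC, which is in 23.2% of all 35116 windows, for the ETS motif CCGGAAGT (4.14%), for the FOX motif TGTTTAC (3.42%) and for the SOX motif ACAAT (27.4%). The first 3 motifs were found in none of them. ACAAT occurred 1 time each in the windows of FOXD3, FOXD3-AS1 and TFAP2B and in 1 of the 2 windows of TFAP2A, and the windows of FOXD3 and FOXD3-AS1 overlap.

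The libraries held 9627 cells at day 10 and 6320 at day 15, with 70488169 and 84976253 unique molecular identifiers (UMIs, each marking 1 captured RNA molecule). The median cell held 6713 UMIs in the first and 11770.5 in the second, and 102 cell barcodes occurred in both libraries. The authors kept 7295 and 5336 cells after quality filters, and clustered the libraries separately. At day 10 the kept cells comprised ENCC, cranial placode (CP), non-neural ectoderm (NNE) and neuro-epithelial progenitor (NEP) clusters, and at day 15 ENCC, CP1, CP2, NEP and mesenchymal (Mes) clusters. The labels were checked against fixed markers. Of the 10 leading genes of ENCCs, 4 at day 10 and 5 at day 15 were ENCC markers and 0 were markers of other classes. The cluster deposited as NEP at day 15 had 1 NEP marker and 2 NNE markers among its 10 leading genes. CP2 had the NEP marker PAX6 and no placode marker among its 10 leading genes. Its placode markers summed to 3791 CPM, against 3071 CPM in CP1. SIX4, NEUROG1 and ELAVL4 had no UMI in CP2, while every placode marker was found in CP1. CP2 held only 401995 UMIs of all genes, against 2388552 in CP1. The sums therefore do not show which of CP1 and CP2 is more placodal. Day 10 NNE was led by other epithelial genes such as KRT7 and CLDN7, while the summed level of its markers was 5335 CPM. For these reasons only ENCCs are compared between stages by name.

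TFAP2A was highest outside the neural crest at both stages. At day 10 it was at 400 CPM (Poisson interval 371 to 430) in the 239 NNE cells, at 112 CPM (99.0 to 126) in CP, at 35.6 CPM (33.7 to 37.6) in ENCCs and at 10.9 CPM (9.24 to 12.8) in NEP. No neighbours in this order had overlapping intervals, and the NNE level was 1122% of the ENCC level. At day 15 it was at 348 CPM (293 to 411) in the 43 CP2 cells, 66.0 CPM (46.5 to 90.9) in Mes, 41.9 CPM (40.2 to 43.6) in ENCCs, 34.7 CPM (27.7 to 43.1) in CP1 and 14.8 CPM (8.63 to 23.7) in NEP. Here the intervals of ENCCs and CP1 overlapped and those of the other neighbours did not. CP1 and CP2 carry related names but stood far apart in TFAP2A.

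TFAP2B was the most abundant of the 3 TFAP2 genes in ENCCs. At day 10 it was at 473 CPM (446 to 500) in CP and 425 CPM (418 to 432) in ENCCs, with 87.7 CPM (74.8 to 102) in NNE and 36.3 CPM (33.2 to 39.5) in NEP. The intervals of CP and ENCCs did not overlap. ENCC markers summed to 783 CPM in the CP cluster, against 1878 CPM in ENCCs and 290 CPM in NEP, and SOX10, which marks neural crest, was in CP at 24.999% of its ENCC level. TFAP2B in CP was at 111% of its ENCC level. The part of ENCC RNA in the CP level was not tested. At day 15 TFAP2B was at 152 CPM (149 to 156) in ENCCs, 108 CPM (94.8 to 122) in CP1, 83.8 CPM (61.6 to 111) in Mes, 29.9 CPM (15.4 to 52.1) in CP2 and 24.4 CPM (16.2 to 35.3) in NEP. CP1 and Mes overlapped, as did CP2 and NEP.

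TFAP2C showed a different order, with ENCCs at the bottom at day 10. It was at 23.4 CPM (21.0 to 26.1) in NEP, 21.1 CPM (15.02 to 28.9) in NNE, 12.4 CPM (8.40 to 17.5) in CP and 5.49 CPM (4.76 to 6.30) in ENCCs. NEP, NNE and CP overlapped with their neighbours, and ENCCs were apart from all of them. At day 15 every deposited cell type was at or below 2.49 CPM, the value of a single UMI in CP2, and all intervals overlapped. The Mes cluster had 0 UMIs, with an upper interval limit of 6.58 CPM.

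**Figure D1:**
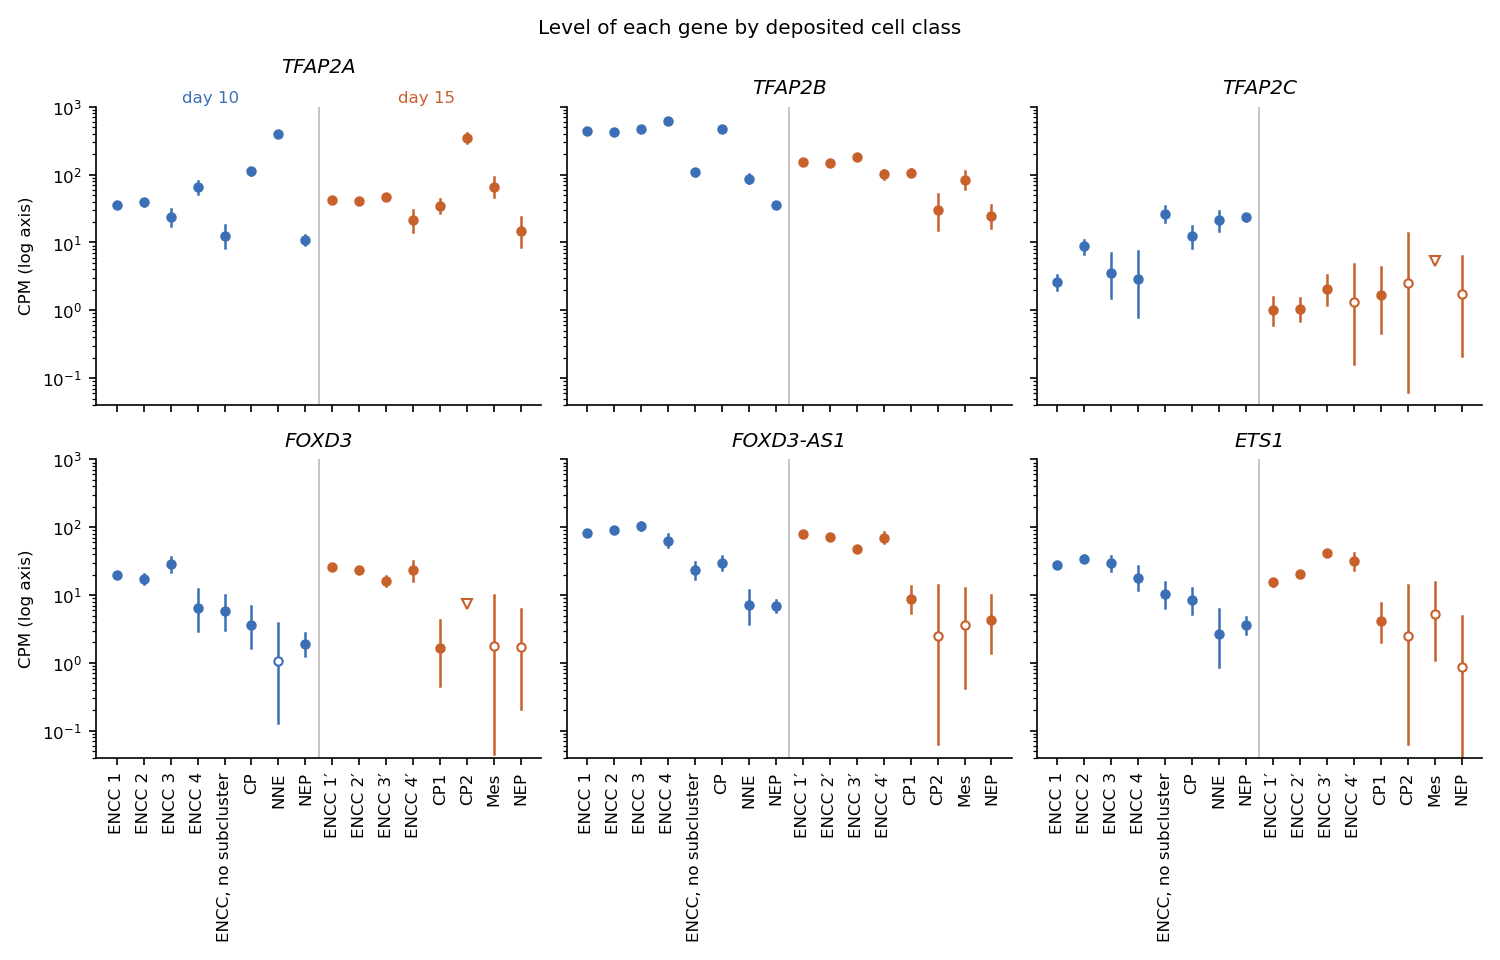
Level of each gene (CPM, log axis) in the deposited cell classes of the day 10 library (blue) and the day 15 library (orange). Points are summed counts with 95% Poisson intervals, cut off at the lower axis limit. Open circles rest on 3 UMIs or fewer, and open triangles mark 0 UMIs at the level that 3 UMIs would give. TFAP2A peaks in NNE (400 CPM) and CP2 (348 CPM), while FOXD3, FOXD3-AS1 and ETS1 peak in ENCC subclusters.

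The make-up of the TFAP2 signal therefore differed by class. The 3′ assay counts captured molecules whatever the transcript length, so the UMIs of the 3 genes can be put on 1 scale, although capture may still differ between them. In day 10 ENCCs TFAP2B supplied 91.2% (Clopper-Pearson interval 90.7 to 91.6) of the 17225 UMIs of the 3 genes, TFAP2A 7.64% and TFAP2C 1.18%. In day 10 NNE TFAP2A supplied 78.6% (75.8 to 81.2) of 939 UMIs, and in day 10 NEP TFAP2C supplied 33.2% (30.3 to 36.2) of 991 UMIs. In day 15 ENCCs the share of TFAP2B was lower, 77.9% (77.1 to 78.7) of 10909 UMIs, and that of TFAP2A was 21.4% (20.7 to 22.2). In CP2 TFAP2A supplied 91.5% (85.9 to 95.4) of 153 UMIs, whereas in CP1 TFAP2B supplied 74.7% (69.8 to 79.2) of 344. The summed level of the 3 genes was 466 CPM in ENCCs at day 10 and 195 CPM at day 15.

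**Figure D2:**
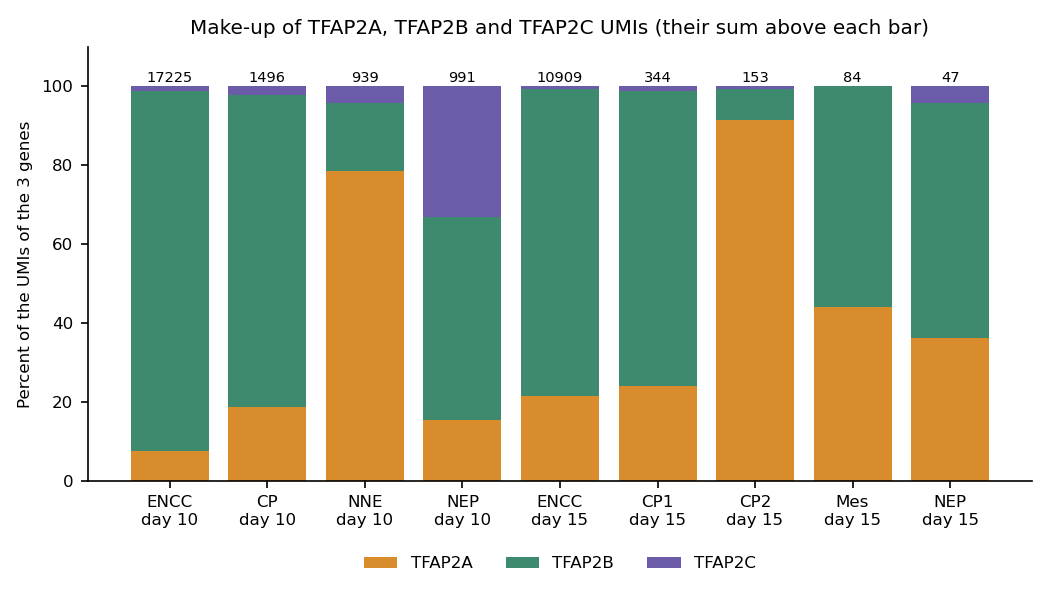
Share of TFAP2A, TFAP2B and TFAP2C in their summed UMIs (percent, bars start at 0) for each deposited cell type at each stage, with the summed UMIs above the bar. TFAP2B makes up most of the ENCC bars (91.2% at day 10 and 77.9% at day 15) and TFAP2A most of the NNE and CP2 bars. The day 15 Mes and NEP bars rest on 84 and 47 UMIs.

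FOXD3 was highest in ENCCs at both stages. It is one of the ENCC markers and the authors named the cluster by it and SOX10, so this order is partly fixed by the label. Against 18.4 CPM (17.0 to 19.8) in day 10 ENCCs it was at 3.59 CPM (1.64 to 6.81) in CP, 1.92 CPM (1.27 to 2.80) in NEP and 1.08 CPM (0.131 to 3.91) in NNE, the last from 2 UMIs. At day 15 it was at 23.1 CPM (21.9 to 24.4) in ENCCs, and CP1, NEP and Mes were between 1.67 and 1.78 CPM on 4, 2 and 1 UMIs. CP2 had 0 UMIs, with an upper interval limit of 9.18 CPM. The intervals of all classes other than ENCCs overlapped within each stage.

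FOXD3-AS1, a long noncoding RNA, was also highest in ENCCs and was above FOXD3 there. At day 10 it was at 81.7 CPM (78.8 to 84.6) in ENCCs, 29.9 CPM (23.5 to 37.5) in CP, 7.04 CPM (3.75 to 12.0) in NNE and 6.91 CPM (5.60 to 8.43) in NEP. At day 15 it was at 71.4 CPM (69.2 to 73.6) in ENCCs and between 2.49 and 8.79 CPM elsewhere. ENCCs and CP were apart from the other day 10 classes, and ENCCs were apart from all day 15 classes.

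ETS1 was also highest in ENCCs. Its level there was 27.6 CPM (25.9 to 29.3) at day 10, and the day 15 level was 22.2 CPM (20.9 to 23.4). CP followed at 8.38 CPM (5.18 to 12.8), then NEP at 3.63 CPM (2.70 to 4.78) and NNE at 2.71 CPM (0.879 to 6.32). At day 15 the other classes lay between 0.872 CPM in NEP and 5.35 CPM in Mes, on at most 10 UMIs each, with overlapping intervals.

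Levels in day 10 NEP were also set against those in ENCCs. Within day 10 NEP, TFAP2B was at 8.53% of its ENCC level, FOXD3-AS1 at 8.46%, FOXD3 at 10.5%, SOX10 at 10.5% and ETS1 at 13.2%. TFAP2A was at 30.6% and TFAP2C at 427%. Single NEP cells held up to 9 TFAP2B, 6 SOX10 and 4 FOXD3 UMIs, and TFAP2B was at 36.3 CPM from summed counts and at 28.1 CPM as a mean over cells. The part of free RNA or of doublets in these levels was not tested. In NNE, SOX10 was at 4.07% of its ENCC level and TFAP2B at 20.6%.

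ENCCs were further divided by the authors into 4 numbered subclusters per stage, ENCC 1 to 4 and ENCC 1′ to 4′, whose numbers do not correspond between stages. At day 10, FOXD3 was at 28.5 CPM (21.9 to 36.4) in ENCC 3, 19.7 CPM (17.9 to 21.6) in ENCC 1 and 17.3 CPM (14.5 to 20.4) in ENCC 2. It was lowest in ENCC 4, at 6.52 CPM (2.98 to 12.4). ENCC 4, with 187 cells, also had the least FOXD3-AS1 (63.7 CPM, against 82.8 to 105 in the others) and the most TFAP2A (65.2 CPM, against 23.6 to 39.1) and TFAP2B (612 CPM, against 430 to 475), with separate intervals in each case. Placode markers summed to 156 CPM in ENCC 4 and to between 16.2 and 24.0 CPM in the other 3 subclusters, while SOX10 was at 104 CPM there. Their part in the levels of ENCC 4 was not tested. ETS1 was between 18.1 CPM in ENCC 4 and 34.2 CPM in ENCC 2, and each subcluster overlapped with its neighbour in the order. ENCC 2 (30.3 to 38.4) was nevertheless apart from ENCC 1 (25.3 to 29.6) and from ENCC 4 (11.7 to 26.7), with ENCC 3 between them on 66 UMIs.

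TFAP2C was spread unevenly over the day 10 ENCCs. The 3001 cells of ENCC 1 were at 2.61 CPM (1.99 to 3.36), and ENCC 2 was at 8.76 CPM (6.84 to 11.0). The authors left 256 cells of the ENCC cluster outside the numbered subclusters, with the deposited subtype label Non-NC. These cells are part of all ENCC sums here, except where numbered subclusters are named. Their TFAP2C level was 26.7 CPM (20.4 to 34.3), about the level of NEP. They held 60 of the 203 TFAP2C UMIs of all day 10 ENCCs. In these cells NEP markers summed to 1129 CPM and NNE markers to 899 CPM, against at most 48.1 and 68.0 CPM in the numbered subclusters, and TFAP2B was at 108 CPM. The NNE markers were not particular to NNE, since they summed to 1299 CPM in the NEP cluster and to 5335 CPM in NNE. TFAP2A was at 12.4 CPM in these cells, against 10.9 CPM in NEP and 400 CPM in NNE. The part of these cells in the ENCC level of TFAP2C was thus measured directly, and the numbered subclusters taken alone are given with the stage comparison.

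At day 15, ETS1 differed between subclusters. It was at 41.4 CPM (37.1 to 46.0) in ENCC 3′ and 31.7 CPM (23.3 to 42.0) in ENCC 4′, with ENCC 2′ at 20.5 CPM (18.8 to 22.3) and ENCC 1′ at 15.5 CPM (13.8 to 17.4). The ETS1 intervals of ENCC 3′ and ENCC 4′ overlapped, and the other neighbours in this order were separate. ENCC 3′ had at the same time the lowest FOXD3 (16.4 CPM, 13.7 to 19.4) and FOXD3-AS1 (47.6 CPM, 43.0 to 52.6) and the highest TFAP2B (181 CPM, 172 to 191). ENCC 1′ had the highest FOXD3 (25.5 CPM) and FOXD3-AS1 (79.8 CPM) beside the lowest ETS1, with TFAP2B at 151 CPM. For FOXD3 and FOXD3-AS1 the intervals of ENCC 1′ overlapped with those of ENCC 2′ and ENCC 4′. For FOXD3 those of ENCC 3′ and ENCC 4′ overlapped as well. TFAP2A was even across ENCC 1′ to 3′, between 41.6 and 47.5 CPM, and was at 21.1 CPM (14.4 to 29.8) in ENCC 4′, where TFAP2B was also lowest at 101 CPM (85.6 to 118). Of the 138 cells of ENCC 4′, 86.2% were in G1 phase. Subclusters come from the same counts, so these levels are a description and not a test.

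The stage comparison asked which of these genes differed between induced ENCCs and ENCCs in crestospheres. TFAP2B was 2.79-fold lower at day 15, from 425 to 152 CPM (log2 ratio −1.48, exact interval −1.52 to −1.44). TFAP2C was 4.51-fold lower, from 5.49 CPM on 203 UMIs to 1.22 CPM on 68 UMIs (log2 ratio −2.17, −2.59 to −1.77). These 2 of the 6 genes were lower by at least 2-fold, and 0 were higher by that much. Among 9257 genes with at least 5 CPM in ENCCs of 1 stage, 7.18% were at least 2-fold lower and 9.17% at least 2-fold higher at day 15. All 6 genes were compared, TFAP2C only through its day 10 level. The largest subclusters were ENCC 1, with 3001 of the 4921 day 10 ENCCs, and ENCC 2′, with 2377 of the 4934 day 15 ENCCs.

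The other 4 genes differed by less. TFAP2A was at a log2 ratio of 0.23 (0.14 to 0.33), FOXD3-AS1 at −0.19 (−0.26 to −0.13) and ETS1 at −0.32 (−0.44 to −0.19), with FOXD3 at 0.33 (0.20 to 0.47). The median of all compared genes was −0.15, and scaling by trimmed mean of M values (TMM) in place of total UMIs shifted all log2 ratios by 0.19. Relative to that median, a difference on which the scaling has no bearing, TFAP2B was at −1.34, TFAP2C at −2.03, ETS1 at −0.17, FOXD3-AS1 at −0.05, TFAP2A at 0.38 and FOXD3 at 0.48. FOXD3-AS1 was thus next to the median gene. ETS1 depended on the cells chosen, since among cells called G1 it was at 27.3 CPM at day 10 and 27.5 CPM at day 15, a log2 ratio of 0.01. For TFAP2C, ENCCs inside the numbered subclusters, without the cells labelled Non-NC, gave a log2 ratio of −1.79.

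Whole libraries, in which cell composition also counts, gave other values. TFAP2C was 9.04-fold lower at day 15, from 12.1 to 1.34 CPM. NEP held 329 of the 602 TFAP2C UMIs of kept day 10 cells, with 1811 of the 7295 cells, and 104 of the 5336 kept day 15 cells were deposited as NEP. TFAP2B was at a log2 ratio of −0.9996, FOXD3 at 0.71, FOXD3-AS1 at 0.17, ETS1 at 0.03 (−0.08 to 0.14) and TFAP2A at −0.11. The sign for TFAP2A changed to 0.08 under TMM scaling.

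**Figure D3:**
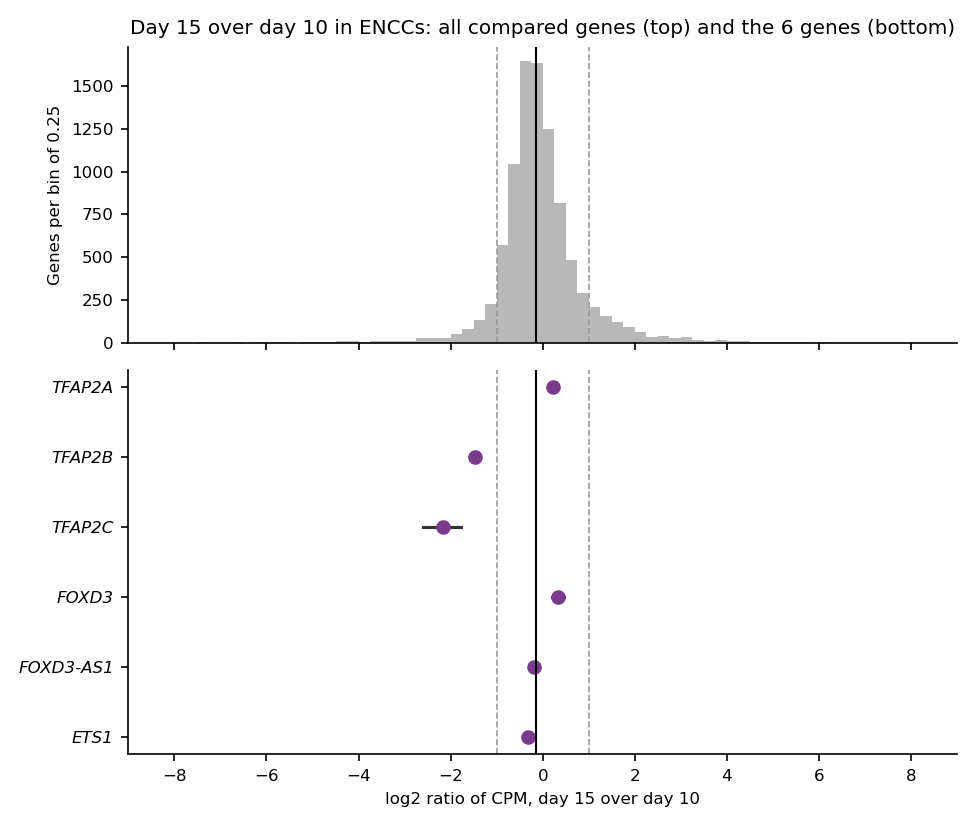
Log2 ratio of CPM at day 15 over day 10 in ENCCs. Top, number of genes per bin of 0.25 for the 9257 compared genes; bottom, each of the 6 genes with its exact 95% counting interval, where the line is wider than the point. The solid line is the median of all genes (−0.15) and the dashed lines mark 2-fold. TFAP2B (−1.48) and TFAP2C (−2.17) lie beyond the lower dashed line.

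For shares of cells, every cell was first thinned to 3000 UMIs, since day 15 cells were deeper. TFAP2B was detected in 68.6% (Clopper-Pearson interval 67.2 to 69.8) of day 10 ENCCs and in 34.4% (33.1 to 35.8) of day 15 ENCCs, against 6.73% and 9.62% of NEP cells. Without thinning the shares were 88.7% and 76.8%, and the median day 10 ENCC held 3 TFAP2B UMIs and the highest 17. FOXD3, a marker of these cells, was detected after thinning in only 5.37% (4.75 to 6.03) and 6.38% (5.72 to 7.10) of ENCCs, against 0.445% of day 10 NEP cells. TFAP2A was found in 9.72% and 11.3% of ENCCs, FOXD3-AS1 in 21.2% and 18.8%, ETS1 in 7.99% and 6.61% and TFAP2C in 1.77% and 0.345%. TFAP2A in NNE was detected in 67.7% (61.3 to 73.6) of cells. For each gene the shares in ENCCs moved in the direction of its CPM. At this depth a cell without a UMI cannot be called negative.

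ENCCs with and without a FOXD3 UMI had overlapping shares of cells with its antisense transcript. After thinning, FOXD3-AS1 was found in 22.3% (17.5 to 27.9) of the 264 day 10 ENCCs with a FOXD3 UMI and in 21.2% (20.0 to 22.4) of those without, and in 20.0% and 18.7% at day 15. Of the 30 ordered pairs of genes, only TFAP2A with TFAP2B, taken either way, had intervals that did not overlap at day 10, and 0 pairs did at day 15. TFAP2B was found in 75.1% (71.0 to 78.9) of day 10 ENCCs with a TFAP2A UMI and in 67.8% (66.4 to 69.2) of those without. At this depth 19.9% of day 10 ENCCs and 41.3% of day 15 ENCCs had a UMI of none of the 6 genes.

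FOXD3 varied with the deposited cell cycle phase. In day 10 ENCCs it was at 12.3 CPM (10.4 to 14.4) in G1, 17.5 CPM (15.3 to 20.1) in S and 25.5 CPM (22.7 to 28.5) in G2M, a ratio of G2M over G1 of 2.07 (1.70 to 2.52). At day 15 it was at 20.1, 20.9 and 30.4 CPM, a ratio of 1.52 (1.32 to 1.75). The G2M level was the higher in 7 of the 8 subclusters, all but ENCC 4 with its 9 UMIs, and the interval lay above 1 in 6. Cells in G2M were deeper (median 8439 UMIs against 6345.5 in G1 at day 10), and with ENCCs of 5000 to 10000 UMIs alone, a choice made after seeing the data, the ratios were 2.09 (1.65 to 2.66) and 1.91 (1.43 to 2.53).

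The other genes varied less or otherwise with phase. FOXD3-AS1 had G2M over G1 ratios of 1.17 (1.07 to 1.27) and 1.33 (1.23 to 1.45) over all ENCCs. Its ratio was above 1 in 6 of the 8 subclusters, and the interval lay above 1 in 3. TFAP2B was lower in S than in G1, with ratios of 0.780 (0.750 to 0.812) and 0.873 (0.830 to 0.918), and over all ENCCs its G2M intervals included 1. Among the 8 subclusters the TFAP2B interval of G2M over G1 lay below 1 in 2 and above 1 in 1. These were ENCC 1 (0.941, 0.898 to 0.986), ENCC 3 (0.798, 0.700 to 0.910) and ENCC 1′ (1.16, 1.05 to 1.27). TFAP2A was higher in G2M over all day 15 ENCCs, at a ratio of 1.27 (1.14 to 1.41), while at day 10 the interval included 1. With ENCCs of 5000 to 10000 UMIs alone the day 15 ratio of TFAP2A was 0.903 (0.685 to 1.18), so the rise did not hold there. TFAP2C at day 10 was at 7.75 CPM in G1 and 2.95 CPM in G2M, a ratio of 0.380 (0.252 to 0.562). Of the 99 G1 UMIs, ENCC 1 to 4 held 27, 21, 5 and 3, and the others came from the ENCCs outside the numbered subclusters. The ratio was 0.2505 (0.0921 to 0.590) in ENCC 1 and 0.753 (0.391 to 1.45) in ENCC 2, and of the 6 subclusters of both stages with a ratio only ENCC 1 had an interval below 1. Since phase was called from the same transcriptomes, these values are a description.

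**Figure D4:**
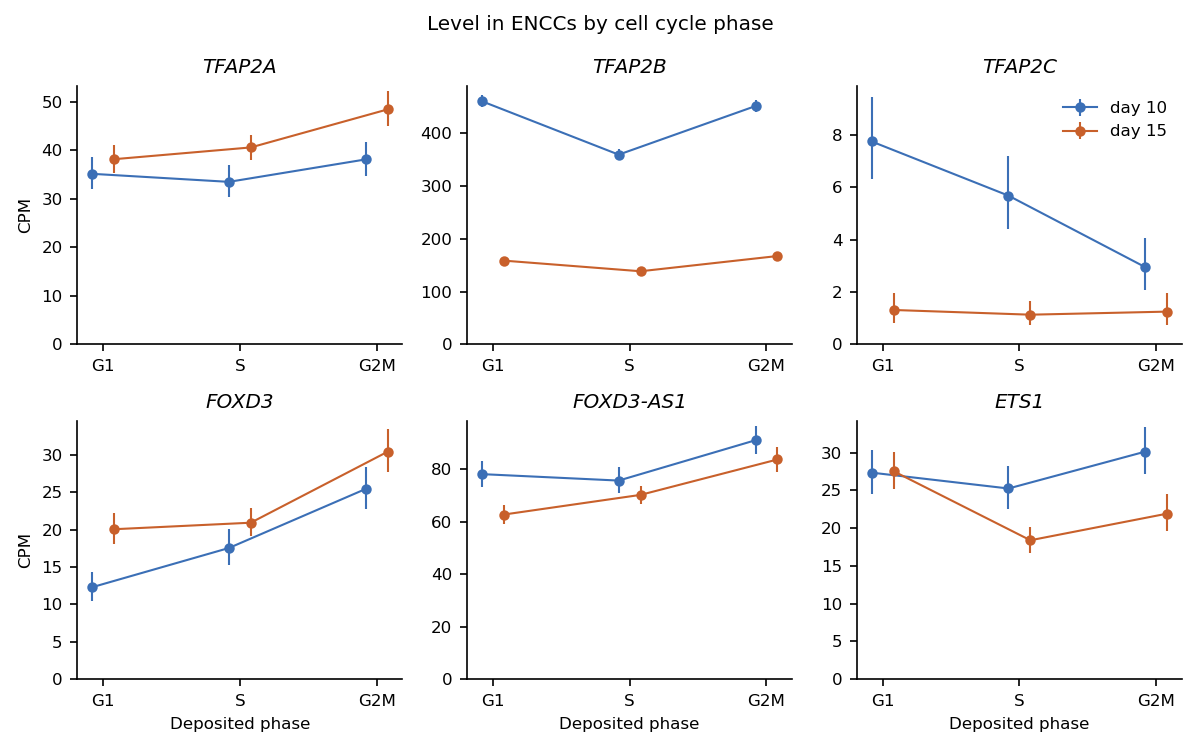
Level of each gene (CPM, axes from 0, each panel with its own scale) in ENCCs by deposited cell cycle phase, for day 10 (blue) and day 15 (orange), with 95% Poisson intervals and lines that only join points of 1 library. FOXD3 is highest in G2M at both stages (25.5 and 30.4 CPM), TFAP2B lies far lower at day 15 in every phase, and the ETS1 lines meet in G1.

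The ratio of FOXD3-AS1 to FOXD3 needs no scaling between libraries. There were 4.45 (4.09 to 4.84) FOXD3-AS1 UMIs per FOXD3 UMI in day 10 ENCCs and 3.09 (2.90 to 3.29) in day 15 ENCCs, with separate intervals. With ENCCs of 5000 to 10000 UMIs alone the ratios were 4.55 and 3.08. By phase, the day 10 ratio was 6.36 (5.37 to 7.57) in G1, 4.31 in S and 3.58 (3.15 to 4.07) in G2M, and the day 15 ratio was 3.13, 3.36 and 2.75. Among the day 10 subclusters the ratio was 9.78 (4.92 to 22.1) in ENCC 4, 5.29 (4.41 to 6.38) in ENCC 2, 4.21 (3.79 to 4.67) in ENCC 1 and 3.69 (2.79 to 4.94) in ENCC 3. The interval of ENCC 4 overlapped with those of ENCC 2 and ENCC 3, and CP at day 10 was at 8.33 (4.16 to 18.9) on 9 FOXD3 UMIs. The 4 day 15 subclusters lay between 2.91 and 3.12.

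**Figure D5:**
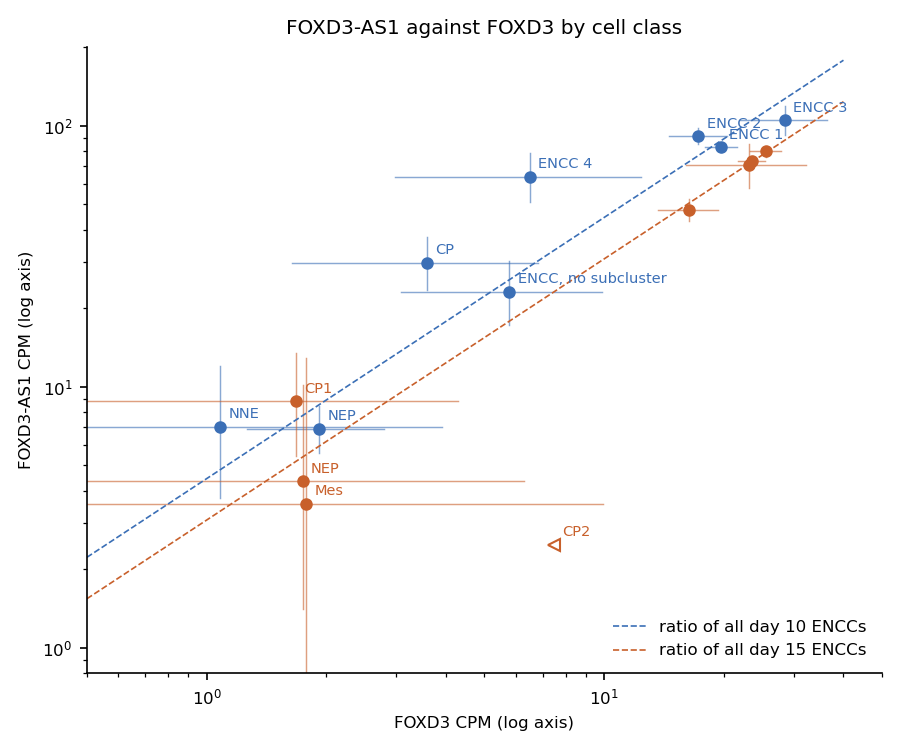
FOXD3-AS1 against FOXD3 (CPM, log axes) in 16 classes of the day 10 (blue) and day 15 (orange) libraries, with 95% Poisson intervals cut off at the axis limits; the unlabelled orange points are ENCC 1′ to 4′. Dashed lines give the ratio of all ENCCs of each stage (4.45 and 3.09). ENCC 4 and CP lie above the day 10 line, and the open triangle marks CP2, with 0 FOXD3 UMIs, at the level of 3 UMIs.

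Across the 16 classes with at least 40 cells, the 6 genes fell into patterns of their own. Pearson correlations of log2(CPM + 1) were 0.94 for FOXD3 with FOXD3-AS1, 0.92 for FOXD3-AS1 with ETS1 and 0.90 for FOXD3 with ETS1. TFAP2B was at 0.63 to 0.80 with these 3 genes, and TFAP2A and TFAP2C were between −0.42 and 0.03 with all others. The classes share libraries and depth and are not replicates, so no test was made. The 5 genes most like FOXD3 among 12740 genes were NPR3, ATP1B3, FOXD3-AS1, FBXO7 and S100B (0.94 to 0.97). For FOXD3-AS1 they included SOX10, NPR3, FOXD3 and GAS7 (0.94 to 0.96), and for ETS1 TBX2, NPR3, S100B and FOXD3-AS1 (0.92 to 0.93). For TFAP2B they were HEYL, FOXP2, C14orf166, LINC00511 and CXCL12 (0.89 to 0.92), for TFAP2C PHKG2, CLN3, LMOD1, TESK2 and RASGEF1A (0.90 to 0.93), and for TFAP2A LMO7, THRA1/BTR, TXLNG, TH and RDH11 (0.81 to 0.84). With rank correlations only 1 of the 5 genes stayed the same for TFAP2A, for TFAP2B and for TFAP2C.

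Relatives and partners of these factors were read in the same ENCC sums. Of 11 TFAP2 relatives and cofactors, 6 were compared, with 0 lower and 1 higher by at least 2-fold and a median log2 ratio of 0.20. Over all genes 7.18% were lower and 9.17% higher, with a median of −0.15. The compared gene past 2-fold was CITED2, a coactivator that binds TFAP2 proteins, with 22.8 CPM at day 10 against 59.6 CPM in the later library. The filter set this count in part. CITED1 (1.24 and 3.29 CPM) and CITED4 (0.0541 and 2.97 CPM) were also past 2-fold but under 5 CPM at both stages. TFAP2E went the other way, on 5 UMIs against 1. The corepressors KCTD1 and KCTD15 were at log2 ratios of −0.51 and 0.36. TFAP2D and TFAP2E were at most at 0.135 CPM in ENCCs, but TFAP2D was at 26.0 CPM (19.9 to 33.3) in CP1, where it was found in 23.6% of cells, against 2.49 CPM on 1 UMI in CP2.

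Of 7 FOX relatives only FOXD2 and FOXC1 reached 5 CPM. FOXD2 was at 1.24 CPM at day 10 and 9.58 CPM (8.78 to 10.4) at day 15, past 2-fold but compared only through that stage, and FOXC1 at 5.22 and 2.97 CPM. Of 15 ETS family genes 9 were compared, with 1 lower and 3 higher by at least 2-fold and a median of 0.52, beside 7.18% lower and 9.17% higher over all genes. The 3 higher genes reached 5 CPM only at day 15 and the lower one only at day 10, so the count was set in part by the filter. ETV5, an ETS factor induced by FGF signalling, was at 1.33 CPM at day 10 and 16.2 CPM at day 15, ELK3 at 0.866 and 15.8 CPM and ETV1 at 3.49 and 10.5 CPM, while ELK4 was at 9.80 and 4.23 CPM.

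Of 15 neural plate border genes 4 were compared and 3 were lower by at least 2-fold. GATA3 and MSX2 were compared only through their day 10 level, so nothing is read from the count. GATA3 was at 7.50 CPM at day 10 and 0.107 CPM at day 15, MSX2 at 5.17 and 0.179 CPM and PAX3 at 65.0 and 29.5 CPM, though PAX3 was not past 2-fold with TMM scaling (log2 ratio −0.96 in place of −1.14). TFAP2A was the fourth and was at 35.6 and 41.9 CPM. Among 18 crest regulators and effectors of other families 15 were compared, with 3 lower, 6 higher and a median of 0.31, beside 7.18% and 9.17% over all genes and their median of −0.15. The 3 lower genes were ID1, ID2 and ID3, inhibitors of bHLH factors and targets of BMP signalling, with ID3 at 714 and 79.4 CPM. The 6 higher genes were SOX9, MYC, MITF, CDH6, CDH19 and RXRG, with SOX9 at 6.82 and 27.4 CPM. MYC (1.92 and 5.68 CPM) and CDH19 (1.00 and 5.39 CPM) reached 5 CPM only at day 15, so this count was also set in part by the filter.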

How the data were processed

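Droplet-based 3′ single-cell libraries of H9 cultures at day 10 and day 15 were analysed, with 1 library per stage. The authors deposited raw UMI counts per gene and cell, whole numbers without normalization, together with metadata that give counts of UMIs and genes per cell, the percent of mitochondrial UMIs, the cell type, the ENCC subcluster and the called cell cycle phase. The study's methods name kallisto and bustools for counting, whereas the submitters' processing notes name Cell Ranger, Seurat 4.0.4 and GRCh38. The annotation release and the use of strand are not given in the sources used here. Clusters came from the authors' own analysis, in which cell cycle scores were regressed out. In all 9627 and 6320 cells the counts summed to the UMI total of the metadata.

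For each class the UMIs of a gene were added up and divided by all UMIs of its cells (CPM). Sums carry exact Poisson intervals, shares Clopper-Pearson intervals and ratios exact conditional intervals, at 95%, and cover counting error alone. Where no UMI was found, figures show the level of 3 UMIs, and counts under 3 were set to 3 for ratios over all genes. Medians of 6713 and 11770.5 UMIs per cell limit detection of genes near 1 UMI per cell. With 1 library per group no test was run, and groups were compared by their intervals. In the stage comparison, genes needed 5 CPM in ENCCs of 1 stage, and a ratio of 2 counted as past 2-fold. For shares of cells, each cell was thinned to 3000 UMIs with a fixed seed, which left out 2 ENCCs at day 10 and 0 at day 15. Doublets were not removed beyond the authors' limits. The 6 genes, the 5 genes most like each by Pearson correlation, the context lists and the markers were fixed by written rules, with earlier results of these data known. Of the genes most like FOXD3-AS1 and ETS1, 1 each is not reported here. Other scalings (TMM from edgeR 4.0.16 under R 4.3.3, and median of ratios), a pseudocount of 1 CPM, other cell choices, thinning depths, filters and rank correlation were tried. The intervals of ratios were checked only on sums simulated with the Poisson counting error that they assume. That check does not bear on spread between cells or libraries. Python 3.11.15 with scipy 1.17.1 was used.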

Additional observations from a re-analysis of the deposited data

Results flagged for a closer look

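The ratio of ETS1 between cell cycle phases had different values in the 2 libraries. In ENCCs the day 10 level in G2M over that in G1 was 1.10 (0.949 to 1.28), whereas the day 15 ratio was 0.796 (0.689 to 0.919), with intervals that do not overlap, and the day 10 interval includes 1. The difference between the stages was not tested. Inside ENCC 1 to 4 the ratios were 1.03, 1.04, 0.946 and 0.860, and inside ENCC 1′ to 4′ they were 0.842, 0.888, 0.893 and 0.670, and each of these intervals included 1. ETS1 was highest in ENCC 3′ and ENCC 4′, and the part of the subclusters in the phase values was not tested.

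Cells that failed the quality filters entered the whole-library ratios above but no cell class. At day 10 their median was 3679 UMIs, against 7101 in kept cells. At day 15 it was 21367, against 11089. At day 10 these 2332 cells held TFAP2A at 55.7 CPM (52.0 to 59.6), above the 44.9 CPM of kept cells, and TFAP2C at 16.7 CPM (14.7 to 18.9), above 10.9 CPM. NNE and NEP markers summed to 1104 and 880 CPM in them, against 1299 and 1418 CPM in the day 10 NEP cluster. At day 15 the 984 removed cells held TFAP2D, a relative of the 3 TFAP2 genes, at 9.46 CPM (8.28 to 10.8), above 1.14 CPM in kept cells, and 77.2% of all TFAP2D UMIs of that library. They held 24628509 of its 84976253 UMIs of all genes. Placode markers summed to 1285 CPM in these cells.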

How the results depend on the processing

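No paired analysis was possible because each stage is 1 library and no result comes from a test. In ENCCs, TMM scaling gave log2 ratios of 0.42 for TFAP2A, −1.30 for TFAP2B, 0.52 for FOXD3, −0.0081 for FOXD3-AS1 and −0.13 for ETS1, and median-of-ratios scaling gave 0.41, −1.30, 0.51, −0.013 and −0.13. Cells of 5000 to 10000 UMIs gave 0.11 for TFAP2A, −1.38 for TFAP2B, −0.27 for FOXD3-AS1 and −0.15 for ETS1. G1 cells gave 0.12 for TFAP2A, −1.54 for TFAP2B, 0.71 for FOXD3, −0.32 for FOXD3-AS1 and, with a changed sign, 0.010 for ETS1. Numbered subclusters gave −1.55 for TFAP2B, and a pseudocount of 1 CPM −1.55 for TFAP2C. For whole libraries TMM gave a changed sign for TFAP2A (0.084), −0.80 for TFAP2B, 0.90 for FOXD3, 0.36 for FOXD3-AS1 and 0.23 for ETS1, kept cells gave −1.11 for TFAP2B and the pseudocount −2.49 for TFAP2C. Genes at least 2-fold lower and higher in ENCCs numbered 665 and 849, with 248 and 407 at a minimum of 20 CPM and 3041 and 2064 without a filter.

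The share of ENCCs with a UMI changed with depth for all 6 genes. At 5000 UMIs it was 15.6% at day 10 and 18.4% at day 15 for TFAP2A, 82.2% and 51.9% for TFAP2B, 2.67% and 0.689% for TFAP2C, 8.80% and 10.6% for FOXD3, 33.3% and 29.7% for FOXD3-AS1 and 12.6% and 10.4% for ETS1. Without thinning it was 21.7% and 34.8%, 88.7% and 76.8%, 3.78% and 1.26%, 12.2% and 21.7%, 43.1% and 51.8%, and 18.2% and 20.9% in the same order. With at least 2 UMIs it was 0.874% and 0.973%, 35.7% and 8.07%, 0.122% and 0, 0.264% and 0.304%, 2.81% and 2.07%, and 0.407% and 0.324%. The order of the stages for FOXD3-AS1 and ETS1 turned without thinning, where day 15 cells were deeper. Of the choices added after seeing the data, G1 cells moved the day 10 ratio of FOXD3-AS1 to FOXD3 to 6.36, and the TFAP2B share in day 15 ENCCs was 80.6% in cells of 5000 to 10000 UMIs and 80.1% in G1 cells. Rank correlation kept 1 of the 5 most similar genes for TFAP2A, TFAP2B and TFAP2C each and 2 for FOXD3 and for FOXD3-AS1. A minimum of 20 CPM kept 2 for TFAP2A and 3 for TFAP2B and for TFAP2C. Weighting cells equally kept 116 of 126 class levels within their intervals. The cause of these changes was not tested.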

Other observations

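Among the removed day 10 cells, TFAP2B was at 184 CPM (178 to 191), FOXD3 at 8.45 CPM (7.05 to 10.0), FOXD3-AS1 at 34.9 CPM and ETS1 at 12.3 CPM, all below the kept cells. Among the removed day 15 cells TFAP2B was at 139 CPM (135 to 144), FOXD3 at 14.9 CPM (13.4 to 16.5) and TFAP2A at 44.7 CPM. Removed day 10 cells held 4.13 (3.40 to 5.05) FOXD3-AS1 UMIs per FOXD3 UMI, and removed day 15 cells 2.82 (2.50 to 3.18). The 27 day 15 ENCCs outside the numbered subclusters also had the deposited subtype label Non-NC. They had placode markers at 715 CPM and TFAP2D at 9.66 CPM, the latter from 3 UMIs.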
